A study of Mus musculus with 6 samples.

Results

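Regulatory T cells (Treg) that help repair tissue are known in part by surface receptors and 1 growth factor. Genes of that set and of the signalling around it, 9 in all, are described here in splenic Treg of mice. The genes are Il1rl1, Il1rap, Il1r1, Il1r2, Il18r1, Il18rap, Klrg1, Areg and Myd88. They were chosen by name, as receptors of the IL-1 family with their adaptor and with 2 genes of tissue-repair Treg. Each of the 9 matched 1 row of the 36811 in the table of expression values, and 8 of them passed the filter on low values, a mean of at least 1 FPKM. FPKM is a fragment number scaled for transcript length and library size, so levels can be set side by side between genes.

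Receptors of the IL-1 family work in pairs. A ligand-binding chain meets its cytokine, an accessory chain joins, and the intracellular domains of both recruit the adaptor MyD88, which passes the signal to NF-kB and MAP kinases. IL-33, released by damaged barrier cells, is read by ST2 (the product of Il1rl1) with the accessory chain IL1RAP, and IL-18 is read by the products of Il18r1 and Il18rap. IL-1 is read by IL1R1 with IL1RAP, while IL1R2 binds IL-1 without signalling and acts as a decoy. Treg that carry ST2 and KLRG1, an inhibitory receptor for cadherins, are found in non-lymphoid tissues and in part of the spleen pool, and they can make amphiregulin (Areg), a ligand of the EGF receptor that supports epithelial repair.

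Expression was measured by RNA sequencing in 6 libraries of Foxp3-GFP+ Treg sorted from the spleen of C57BL/6 mice aged 18 to 21 weeks. Of these, 3 are labelled cKO, with the genotype Bach2fl/fl Foxp3EGFP-Cre-ERT2, and 3 are labelled WT, with the genotype Bach2+/+ Foxp3EGFP-Cre-ERT2. All 6 therefore carry EGFP and the Cre-ERT2 recombinase at Foxp3, so the recombinase is made in Foxp3+ cells. Cre-ERT2 acts only after tamoxifen, whose use is not given in the sources used here. Whether each library is a separate animal is not in the labels, and every p-value here covers only the variation among these 6 libraries. Where 3 values are given for a label, they are those of its libraries 1, 2 and 3 in that order. The comparison addresses the transcriptional repressor Bach2, whose alleles are floxed under the cKO label and unaltered under the WT label.

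Bach2 RNA did not fall under the cKO label, at 6.44 to 9.19 FPKM against 3.29 to 8.25 FPKM under the WT label, so every direction below rests on the labels alone. Of the defining Treg genes, Foxp3 stood at 5.16 to 9.44, Il2ra at 47.6 to 60.2, Ikzf2 at 17.5 to 22.4 and Ctla4 at 96.3 to 172 FPKM over the 6 libraries. The step between low values put the scale from fragments to FPKM at about 3100000 to 5000000 fragments a library, an estimate that need not equal the number sequenced. An adjusted p under 0.05 was found for 3 of the 11979 genes tested (0.0250%), and none of the 8 tested members was among them.

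The genes covered a wide range of levels, with the decoy receptor at the top and the signalling IL-1 receptor at the bottom. Mean levels over the 6 libraries were 149.8 FPKM for Il1r2, 55.2 for Myd88, 54.2 for Klrg1, 30.2 for Il18r1, 10.9 for Il18rap, 4.13 for Areg, 3.68 for Il1rap, 3.39 for Il1rl1 and 0.0225 for Il1r1. Il1r2 lay above 92.1% of the genes tested, and Il1rl1 above 19.8%. The order had 3 clear steps, where the ranges of neighbouring genes over the 6 libraries did not overlap: Il1r2 above Myd88, Il18r1 above Il18rap, and Il1rl1 above Il1r1. Klrg1 was above Il18r1 in 6 of 6 libraries, although their ranges over all libraries overlapped, and Il18rap was above Areg in 5 of 6. Myd88 and Klrg1 changed places between libraries, with Myd88 higher in 4 of 6, and so did Areg, Il1rap and Il1rl1.

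**Figure D1:**
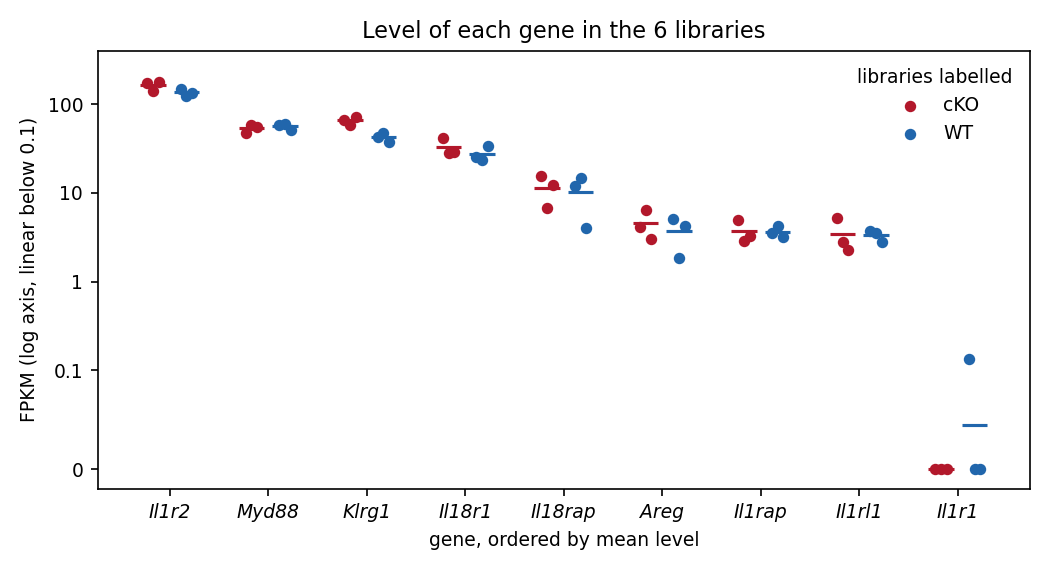
FPKM of the 9 genes (log axis, linear below 0.1) in each library, with red points for the 3 libraries labelled cKO, blue points for the 3 labelled WT and a bar at each group's mean. Il1r2 lies between 123 and 179 FPKM, Il1r1 is above 0 in WT 1 only, and the 2 groups overlap in each gene other than Klrg1.

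Klrg1 encodes the inhibitory lectin-like receptor that marks effector and tissue-type Treg. Klrg1 read 67.0, 58.6 and 71.4 FPKM under the cKO label, against 43.1, 47.4 and 37.7 FPKM under the WT label. Each library labelled cKO was above each labelled WT, with the narrowest gap between cKO 2 and WT 2. The means were 65.7 ± 6.51 and 42.7 ± 4.84 FPKM (SD, n = 3 each), a ratio of 1.54. The difference in log2(FPKM + 1), a scale that understates the change of low genes, was 0.61 ± 0.146 (SE), with 95% limits of 0.26 and 0.96 (limma, unadjusted p = 0.00471, Benjamini-Hochberg adjusted p = 0.846). Klrg1 thus did not pass over all genes tested, and an unadjusted p no larger than that of Klrg1 was found for 62 genes (0.518%). The exact two-sided permutation test over the 6 libraries gave p = 0.1, the smallest that 3 against 3 allows.

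Klrg1 was the 1 member of 8 with an unadjusted p under 0.05 and a higher level in the libraries labelled cKO, a class that holds 3.59% of all genes tested, and no member was in the lower class, which holds 1.78%. It was also the 1 member of 8 whose groups did not overlap, against 6.96% of all genes higher and 3.75% lower. The log2 difference of Klrg1 stayed between 0.52 and 0.76 in 17 alternative settings, with an unadjusted limma p from 0.000774 to 0.0249. Klrg1 is also made by NK cells and CD8 T cells, whose 8 markers summed to 32.9 to 34.0 FPKM in the libraries labelled cKO and to 32.1 to 41.5 FPKM under the WT label. No marker of the 8 was at 0 in all libraries. Cd8b1 made up the largest share of that sum, at 18.8 to 22.4 FPKM, followed by Prf1 at 3.04 to 8.86 and Gzma at 2.99 to 8.28 FPKM, while Ncr1 reached 0.813 and Cd8a 0.531 FPKM at most. Klrd1, an NK cell receptor, stood at 0 to 0.546 FPKM under the cKO label and at 1.35 to 3.46 FPKM under the WT label. Klrb1c, also an NK cell receptor and below the filter, stood at 0.483 to 0.742 FPKM under the cKO label and at 0.866 to 1.5 FPKM under the WT label. Of the 4 tested markers 2 had a log2 difference above 0, Gzma at 0.01 and Cd8b1 at 0.05. Klrd1 was at -1.28 and Prf1 at -0.61. The part of these cells in the Klrg1 result was not tested. In these bulk libraries, more cells with Klrg1 and more Klrg1 RNA per cell cannot be told apart.

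Among the partners of KLRG1, the cadherin genes Cdh2 and Cdh4 were listed at 0 in all 6 libraries, and Cdh1, which encodes E-cadherin, stood at 0.234 to 1.29 FPKM. The phosphatase genes that act below inhibitory receptors were present in every library. Inpp5d, which encodes the lipid phosphatase SHIP-1, stood at 78.4 ± 12.0 against 64.0 ± 16.5 FPKM (SD, n = 3 each; limma, adjusted p = 0.925). Ptpn6 and Ptpn11, which encode tyrosine phosphatases, had log2 differences of -0.12 and -0.09. None of the 3 tested genes of this list of 6 passed, 1 had a difference above 0, and the list median was -0.09 beside 0.03 over all genes tested.

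**Figure D2:**
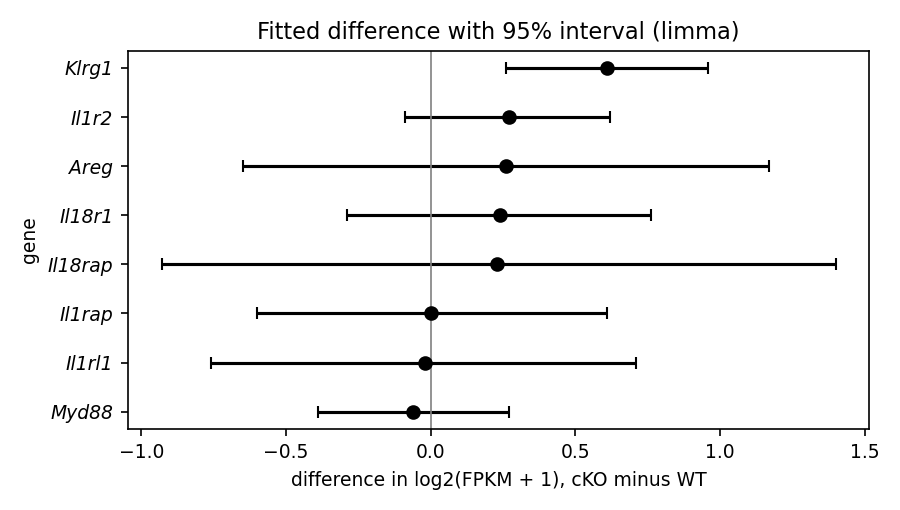
Fitted difference in log2(FPKM + 1), cKO minus WT, for the 8 tested genes, with points for the limma estimate and bars for its 95% interval. The interval of Klrg1, from 0.26 to 0.96, is the 1 interval of these 8 that does not include 0, before any adjustment for the number of genes tested.

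The IL-1 receptors stood far apart, with the decoy chain abundant and the signalling chain at the limit of detection. Il1r2 and Il1r1 are neighbours in RefSeq's order of protein-coding genes on mouse chromosome 1 (GRCm38.p6), at the head of a run of 6 receptor genes: Il1r2, Il1r1, Il1rl2, Il1rl1, Il18r1 and Il18rap. The 250 bases before the Il1r2 start in RefSeq (chr1:40085843-40086092, GRCm38.p6, + strand) are printed because Il1r2 is the most abundant member. Capitals mark both matches to CACGTG, the E-box letters, searched on both strands and held by 6.02% of 32851 such windows.
Il1r2: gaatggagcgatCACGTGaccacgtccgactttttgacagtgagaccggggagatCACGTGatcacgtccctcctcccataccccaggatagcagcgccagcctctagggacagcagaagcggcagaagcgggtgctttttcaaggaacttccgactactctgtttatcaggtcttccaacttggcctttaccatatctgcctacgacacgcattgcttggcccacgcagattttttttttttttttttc
A match is a description of the letters and not evidence of binding. The letters TGANTCA, the core recognised by AP-1 and Bach factors, were searched on both strands in the 12 windows of the 8 members with an entry and were in none of them, against 6.75% of all windows. This says only that these letters are not in these windows. Klrg1 had no entry.

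Il1r2 encodes the decoy receptor, which binds IL-1 and has no signalling domain. Il1r2 read 173, 140.0 and 179 FPKM under the cKO label, against 149, 123 and 135 FPKM under the WT label. The groups overlapped, since cKO 2 lay below WT 1, while cKO 1 and cKO 3 were the highest of the 6. The means were 164 ± 20.9 and 136 ± 13.1 FPKM (SD, n = 3 each). By limma, the log2 difference came to 0.27 ± 0.148 (SE), with 95% limits of -0.09 and 0.62 (adjusted p = 0.925). Without cKO replicate 2 the difference was 0.38 (limma, unadjusted p = 0.0345, adjusted p = 0.969). Adjusted p-values over the 17 alternatives ranged from 0.423 to 1.0.

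Neutrophils also make Il1r2, and their markers were uneven between the libraries. The summed level of 8 neutrophil markers came to 296, 823 and 142 FPKM under the cKO label, against 222, 230.2 and 145 FPKM under the WT label, with none of the 8 at 0 in all libraries. The sum was highest in cKO 2, with the lowest Il1r2 of its group, and lowest in cKO 3, with the highest Il1r2. Under the WT label it was highest in WT 2, with the lowest Il1r2 of that group. It was lowest there in WT 3, whose Il1r2 lay between those of WT 1 and WT 2. All 5 tested neutrophil markers had a difference above 0, with a median of 0.78 (log2), and none passed. S100a8, the most abundant of them, reached 545 FPKM in cKO 2, and S100a9 reached 245 FPKM there. Together S100a8 and S100a9 made up most of the sum in each library, which can hide the other markers. Mmp9 did not overlap between the groups, at 5.34 to 15.3 against 2.23 to 5.29 FPKM, and Ly6g was at 3.77 and 2.71 FPKM in cKO 1 and cKO 2 and listed at 0 in the other libraries. Csf3r and Cxcr2, receptors of neutrophils, were at most 1.34 and 0.547 FPKM. The 7 monocyte and macrophage markers summed to 96.9 to 113 FPKM in the libraries labelled cKO and to 56.2 to 99.1 FPKM under the WT label. The part of neutrophils, monocytes and macrophages in the Il1r2 result was not tested.

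**Figure D3:**
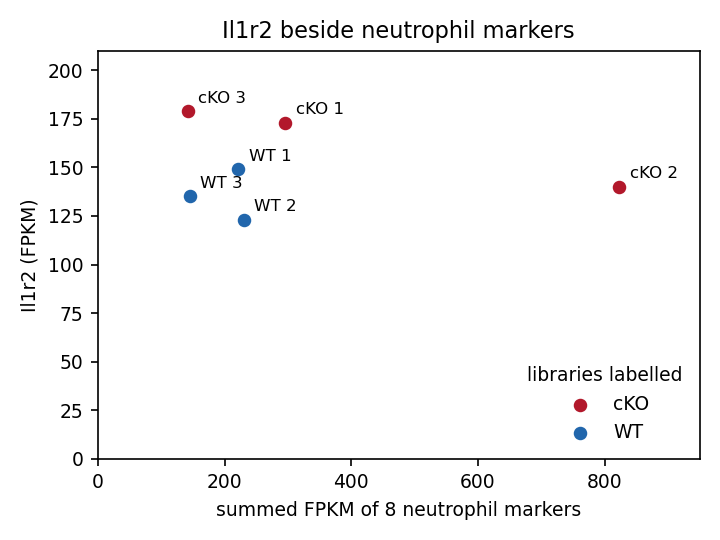
Il1r2 (FPKM, vertical axis) against the summed FPKM of 8 neutrophil markers (horizontal axis), 1 point for each library, red for those labelled cKO and blue for those labelled WT. cKO 2 lies far to the right at 823 FPKM with an Il1r2 level of 140.0 FPKM, below cKO 1 and cKO 3.

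Il1r1 encodes the chain through which IL-1 signals. Il1r1 was listed at 0 in each library labelled cKO and in WT 2 and WT 3, and at 0.135 FPKM in WT 1. By its longest transcript that value corresponds to at most about 4 fragments. Il1r1 was the 1 member below the filter and was not tested. With no filter its log2 difference was -0.06 (limma, adjusted p = 0.913), which at this depth carries no information on a difference.

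Il1rap encodes the accessory chain shared by the receptors for IL-1 and IL-33, and it was present in every library. Il1rap read 4.98, 2.86 and 3.31 FPKM under the cKO label, against 3.50, 4.24 and 3.20 FPKM under the WT label. The highest and the lowest value both lay in libraries labelled cKO. By limma, the log2 difference came to 0.00198 ± 0.253 (SE), with 95% limits of -0.60 and 0.61 (adjusted p = 1.0). At most 58 to 81 fragments lay behind each value by the longest transcript. The antisense gene Gm20319 overlaps exons of Il1rap in GENCODE M21 and has no row in the table.

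**Figure D4:**
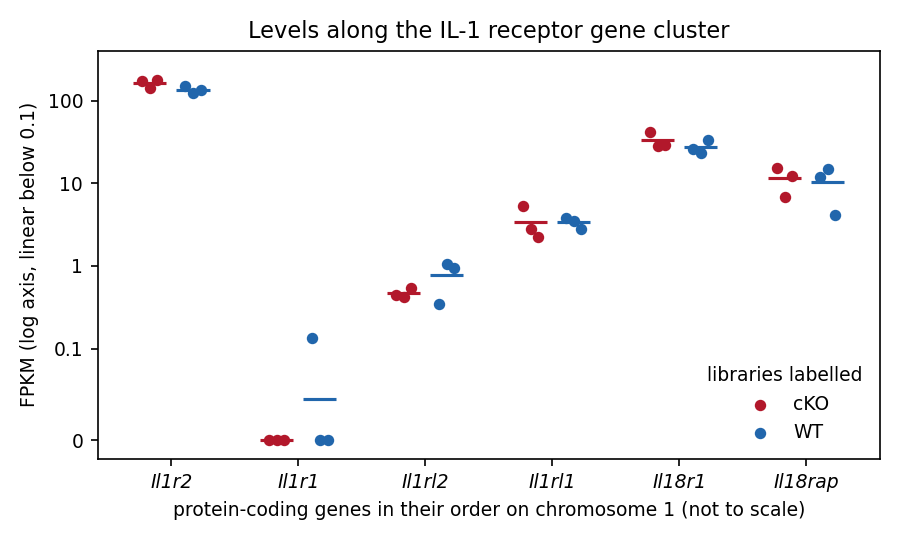
FPKM (log axis, linear below 0.1) of the 6 protein-coding genes from Il1r2 to Il18rap in their order on chromosome 1, not to scale, with red points for libraries labelled cKO, blue points for those labelled WT and bars for group means. Il1r1 and Il1rl2 lie at or below 1.04 FPKM in each library between Il1r2, at 123 FPKM or more, and Il1rl1, at 2.26 to 5.29 FPKM.

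Il1r1 and Il1rl2, which are neighbours, were thus the lowest of this run, while the genes on both sides of the pair were higher in each library. Il1rl2, which encodes the IL-36 receptor chain and lies between Il1r1 and Il1rl1, stood at 0.465 ± 0.0605 FPKM under the cKO label and at 0.776 ± 0.373 FPKM under the WT label (SD, n = 3 each). Toward the end of the run the levels were 30.2 FPKM for Il18r1 and 10.9 FPKM for Il18rap as means of 6 libraries. The order Il1r2, Il18r1, Il18rap, Il1rl1 held for the group means under both labels.

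The IL-33 receptor chain was low, and no difference between the groups was detectable. Il1rl1, which encodes ST2, read 5.29, 2.77 and 2.26 FPKM under the cKO label, against 3.76, 3.50 and 2.79 FPKM under the WT label. The libraries labelled WT lay inside the range of those labelled cKO, whose spread came from cKO 1. The means were 3.44 ± 1.62 and 3.35 ± 0.499 FPKM (SD, n = 3 each). By limma, the log2 difference came to -0.02 ± 0.308 (SE), with 95% limits of -0.76 and 0.71 (adjusted p = 0.999). That interval is wide, so it includes differences larger than that of Klrg1. At most 47 to 101 fragments lay behind each value, and the gene-level values do not separate the membrane form of ST2 from the soluble one.

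Il1rl1 has 2 starts in the RefSeq table, and the 250 bases before the first (chr1:40429320-40429569, GRCm38.p6, + strand) are printed because Gata3, a factor that binds GATA sites and is known in ST2+ Treg, was abundant here. Capitals mark AGATAA and TGATAA, 2 of the forms of the GATA site, searched on both strands, which stood in 9.99% and 7.94% of all windows. Other forms of the site, such as AGATAG and TGATAG, were not searched, and those in the sequence are unmarked. Of the 12 member windows, AGATAA was in 2, both of Il1rl1. TGATAA was in 3, which belong to Il18rap, Il1r2 and Il1rl1, so it was not particular to Il1rl1.
Il1rl1: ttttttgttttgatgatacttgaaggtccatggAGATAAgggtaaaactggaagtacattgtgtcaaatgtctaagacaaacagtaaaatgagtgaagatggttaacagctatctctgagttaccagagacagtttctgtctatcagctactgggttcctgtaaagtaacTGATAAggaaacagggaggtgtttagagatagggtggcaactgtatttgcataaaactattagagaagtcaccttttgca
These motifs, like CACGTG above and the CREB-type site below, were chosen after the sequences had been seen. Gata3 stood at 298 ± 33.8 FPKM under the cKO label and at 253 ± 20.3 FPKM under the WT label (SD, n = 3 each; limma, adjusted p = 0.925). A high level of Gata3 thus stood beside a low level of Il1rl1 in each library.

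Il1rl1 and its accessory chain were near 1 to 1. The ratio of Il1rl1 to Il1rap came to 1.06, 0.968 and 0.684 under the cKO label, against 1.07, 0.824 and 0.872 under the WT label. The ratio of Klrg1 to Il1rl1 came to 12.7, 21.2 and 31.6 under the cKO label, against 11.5, 13.6 and 13.5 under the WT label. The groups overlapped in this ratio, through cKO 1, the library with the highest Il1rl1. Mast cells and basophils also make Il1rl1, and their 8 markers summed to 2.19, 3.42 and 12.3 FPKM under the cKO label and to 2.09 to 5.12 FPKM in the libraries labelled WT. The highest sum was in cKO 3, where Prss34 stood at 8.28 and Mcpt8 at 2.50 FPKM and Il1rl1 was at its lowest. Prss34 was at 2.53 FPKM in WT 3. Kit was at 3.85 FPKM in WT 1, which had the highest sum and the highest Il1rl1 of its group. Fcer1a was listed at 0 in all libraries, and Ms4a2 and Cpa3 reached at most 0.107 and 0.373 FPKM. The part of these cells in the Il1rl1 values was not tested.

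The IL-18 receptor was the more abundant of the cytokine receptors that signal. Il18r1, which encodes the ligand-binding chain, read 41.8, 28.0 and 28.8 FPKM under the cKO label, against 25.6, 23.5 and 33.7 FPKM under the WT label. cKO 1 was the highest, and WT 3 lay above cKO 2 and cKO 3, so the groups overlapped. The means were 32.8 ± 7.76 and 27.6 ± 5.41 FPKM (SD, n = 3 each), with a log2 difference of 0.24 ± 0.218 (SE) and 95% limits of -0.29 and 0.76 (limma, adjusted p = 0.933). Il18r1 was 6.71 to 12.7 times as high as Il1rl1 in every library.

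Il18rap, which encodes the accessory chain, had the largest ratio of highest to lowest value among the 8 tested members. Il18rap read 15.4, 6.81 and 12.3 FPKM under the cKO label, against 12.0, 14.9 and 4.08 FPKM under the WT label. The low values were in 1 library of each label, cKO 2 and WT 3. The highest value was 3.77 times the lowest, against 3.53 times for Areg. By limma, the log2 difference came to 0.23 ± 0.486 (SE), with 95% limits of -0.93 and 1.40 (adjusted p = 0.976). Without WT replicate 3 it was -0.27 (limma, adjusted p = 0.933).

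The balance of the IL-18 receptor chains was therefore uneven across libraries. The ratio of Il18r1 to Il18rap came to 2.71, 4.10 and 2.33 under the cKO label, against 2.13, 1.58 and 8.26 under the WT label. WT 3 stood apart with the highest ratio, from the second highest Il18r1 and the lowest Il18rap. NK cells also make both chains, and the NK and CD8 T cell markers summed to 32.1 FPKM in WT 3, 34.0 in cKO 2 and 32.9 in cKO 1, the library with the highest Il18rap. Cd8b1 made up the largest share of that sum, which can hide the other markers. Gzma read 7.2, 2.99 and 8.28 FPKM under the cKO label, against 6.34, 7.64 and 3.65 FPKM under the WT label. Like Il18rap, it was lowest of each group in cKO 2 and WT 3. Prf1 was lowest of its group in WT 3, at 4.66 FPKM, but highest of its group in cKO 2, at 6.36 FPKM. The part of NK cells in the Il18r1 and Il18rap values was not tested.

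Myd88, the adaptor of the receptors for IL-1, IL-18 and IL-33, had the smallest ratio of highest to lowest value among the 8 tested members. Myd88 read 47.8, 59.0 and 55.5 FPKM under the cKO label, against 57.9, 59.7 and 51.4 FPKM under the WT label. The groups overlapped, and that ratio was 1.25. By limma, the log2 difference came to -0.06 ± 0.138 (SE), with 95% limits of -0.39 and 0.27 (adjusted p = 0.977). Exons of Acaa1a, on the opposite strand, overlap those of Myd88 in GENCODE M21, and Acaa1a stood at 37.5 to 48.3 FPKM. How the authors' counting treated strand is not given in the sources used here, so fragments of both genes in the overlap cannot be told apart.

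Below MyD88 the signalling relay was present and showed no common direction. Of 23 genes in the list of kinases, ubiquitin ligases and inhibitors, 21 were tested, none passed, 11 had a difference above 0, and the median was 0.01 beside 0.03 for all genes. At an unadjusted p under 0.05, 1 of the 21 was higher (Ikbkg), a class of 3.59% of all genes, and none lower, a class of 1.78%. Groups without overlap were found for 1 gene higher and 1 lower, where 6.96% and 3.75% of all genes had them. Ikbkg, the regulatory subunit of the IkB kinase, read 47.8, 44.0 and 36.8 FPKM under the cKO label, against 34.4, 34.1 and 28.9 FPKM under the WT label, with no overlap (limma, unadjusted p = 0.0423, adjusted p = 0.915). Irak3, an inhibitor of the relay, stood at 3.14 ± 0.204 against 4.92 ± 1.61 FPKM (SD, n = 3 each), also with no overlap but in the other direction (limma, adjusted p = 0.925). Mapkapk2, a kinase below p38, stood at 11.8 ± 2.17 against 8.08 ± 2.65 FPKM (limma, adjusted p = 0.925), and Peli1, a ubiquitin ligase and the most abundant of the list, at 111 ± 15.8 against 109 ± 8.07 FPKM (SD, n = 3 each).

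The ligands of these receptors were scarce in the sorted cells. Il1a reached 0.659 FPKM at most, and Il1b stood at 0.159 to 3.6 FPKM. Il33 was listed at 0 in all 6 libraries, and Il18 read 5.63, 1.84 and 4.66 FPKM under the cKO label, against 1.22, 3.04 and 3.26 FPKM under the WT label. Il1rn, the natural antagonist of IL-1, averaged 0.752 ± 0.727 and 1.89 ± 1.15 FPKM (SD, n = 3 each), with a log2 difference of -0.71 (limma, adjusted p = 0.925). Casp1, the protease that matures IL-1 beta and IL-18, was well above them at 68.9 ± 8.43 against 62.1 ± 7.21 FPKM. Of 14 list genes, 13 matched a row, 6 were tested, 5 had a difference above 0 and none passed, with a median of 0.11. Of the other receptors of the family, Sigirr, an inhibitory member, was abundant at 89.9 ± 8.55 against 95.7 ± 6.28 FPKM (limma, adjusted p = 0.954). Il1rapl1 and Il1rapl2 were listed at 0 in all libraries.

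Areg, the growth factor of tissue-repair Treg, was low in every library. Areg read 4.11, 6.46 and 3.04 FPKM under the cKO label, against 5.12, 1.83 and 4.21 FPKM under the WT label. The highest value was in cKO 2 and the lowest in WT 2, and the groups overlapped. Areg has 1 transcript in GENCODE M21, and by its length about 7 to 39 fragments lay behind each value, so counting error alone is large. By limma, the log2 difference came to 0.26 ± 0.380 (SE), with 95% limits of -0.65 and 1.17 (adjusted p = 0.954). Without WT replicate 2 it was -0.075 (limma, adjusted p = 0.996).

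Areg is a known target of CREB, and the 250 bases before its start (chr5:91139349-91139598, GRCm38.p6, + strand) are printed with the 1 match to TGACGTCA, the full cyclic AMP response element, in capitals. Of all windows, 1.55% held it on either strand, and of the 12 member windows 1 did.
Areg: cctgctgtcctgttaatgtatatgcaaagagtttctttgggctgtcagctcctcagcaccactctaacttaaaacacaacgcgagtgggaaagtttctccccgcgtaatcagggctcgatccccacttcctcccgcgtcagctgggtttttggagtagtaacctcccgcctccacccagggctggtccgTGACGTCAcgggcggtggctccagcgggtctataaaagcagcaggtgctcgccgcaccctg
Of the other genes of the amphiregulin axis, Adam17, the protease that sheds amphiregulin, read 92.0, 29.6 and 43.4 FPKM under the cKO label, against 58.3, 70.4 and 36.5 FPKM under the WT label. Erbb4, Tgfa, Ereg and Epgn were listed at 0 in all 6 libraries, and Egfr stood at 0 to 0.453 FPKM. Of 13 genes, 4 were tested, none passed, and 1 had a difference above 0, with a median of -0.11.

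Other genes listed for the tissue-repair programme of Treg stood higher in the libraries labelled cKO more often than lower, without passing over all genes. The list also holds genes that are not particular to that programme, such as Ctla4. Of 19 list genes, all 19 were tested, 18 had a difference above 0, where 55.0% of all genes did, and the median was 0.30 beside 0.03 for all genes. None passed an adjusted p of 0.05, and 8 of the 19 were higher at an unadjusted p under 0.05, a class of 3.59% of all genes: Rora, Prdm1, Id2, Cxcr6, Il10, Tigit, Icos and Tnfrsf9. Gata3, Batf and Pparg, factors known in ST2+ Treg, were not among the 8. The list was chosen with earlier results of these libraries known, so its direction is not independent evidence. Cxcr6, a chemokine receptor that marks lymphocytes resident in tissue, averaged 50.0 ± 8.43 and 23.6 ± 2.62 FPKM (SD, n = 3 each), with a log2 difference of 1.05 (limma, adjusted p = 0.589). Tigit, an inhibitory receptor, had a log2 difference of 0.90 and Icos, a costimulatory receptor, one of 0.81 (limma, adjusted p = 0.589 and 0.748).

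Some factors known in ST2+ Treg overlapped between the groups. Batf, an AP-1 family factor, stood at 203 ± 3.03 against 188 ± 21.2 FPKM, and Pparg, a nuclear receptor of tissue Treg, at 1.03 ± 0.452 against 1.53 ± 0.881 FPKM (SD, n = 3 each; limma, adjusted p = 0.943 and 0.952). Pparg was the 1 gene of the 19 with a difference below 0. Tnfrsf4, which encodes OX40 and was the most abundant of the list, stood at 1286 ± 274 against 1086 ± 65.3 FPKM (SD, n = 3 each; limma, adjusted p = 0.925). Of the 9 members, only Klrg1 did not overlap between the groups, where 6.96% of all genes tested were higher without overlap. Klrg1 did not pass (limma, adjusted p = 0.846), and Il1rl1 and Areg overlapped. Cxcr6, Tigit and Icos did not overlap either, but they were named for the smallest p of their list. Their separation is therefore no independent evidence.

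**Figure D5:**
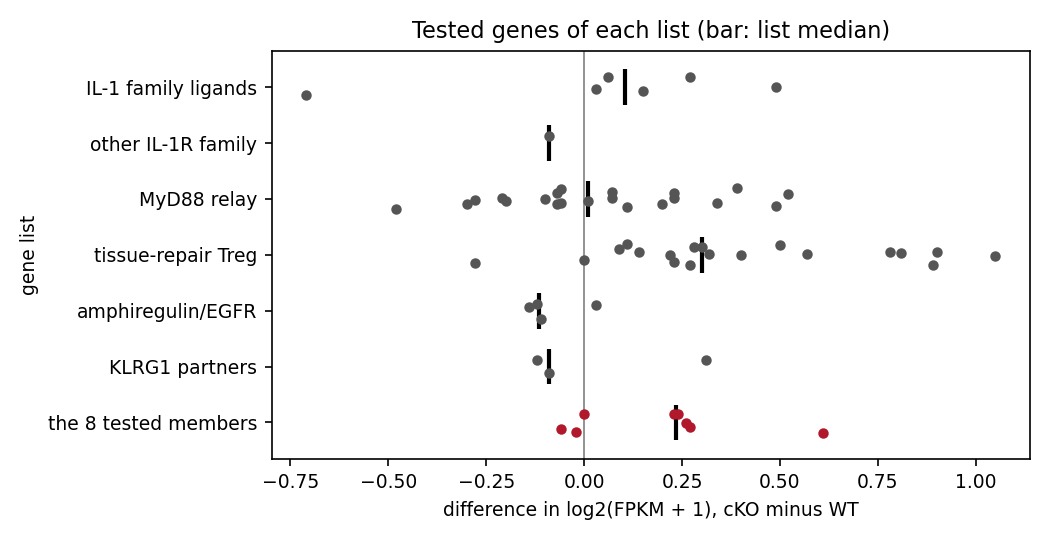
Difference in log2(FPKM + 1), cKO minus WT, for the tested genes of each list (grey points) and for the 8 tested members (red points), with a black bar at the list's median. The median is 0.30 for the tissue-repair list and 0.01 for the MyD88 relay, and Klrg1 lies at 0.61, apart from the other members.

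The genes whose levels over the 6 libraries were most like those of a member were sought among the 7537 protein-coding genes averaging 5 FPKM or more. For Klrg1 these were Birc5, a protein of the mitotic chromosomal passenger complex (Pearson r = 0.998, Spearman rho = 1.0), and Supv3l1, a mitochondrial RNA helicase (r = 0.996, rho = 1.0). Birc5 stood at a mean of 26.4 FPKM in the libraries labelled cKO and of 12.0 FPKM under the WT label, so part of this likeness is the shared difference between groups. For Il1r2 they were Aldh16a1 (r = 0.988, rho = 1.0) and Plk1, a mitotic kinase (r = 0.982, rho = 0.943). Aldh16a1 averaged 86.8 FPKM under the cKO label and 63.6 FPKM under the WT label, and Plk1 7.52 and 3.71 FPKM. The limit given for Birc5 thus holds here too. For Il18r1 they were Kdm6b, a histone demethylase (r = 0.986, rho = 1.0), and Tinf2, a telomere protein (r = 0.983, rho = 1.0). Leaving out the 2 libraries farthest from the median, r lay between 0.929 and 0.996 for these 6 pairs.

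For Il18rap the most alike were Sugp2 (r = 0.992, rho = 0.943) and Epb41l2 (r = 0.982, rho = 0.714), and r without the 2 farthest libraries was 0.875 and 0.592, so the likeness of Epb41l2 rests on those libraries. For Myd88 they were Asah1, a lysosomal ceramidase (r = 0.990, rho = 1.0), and Rab5a, an endosomal GTPase (r = 0.989, rho = 0.943). With 6 points and 7537 candidates, high values arise readily: 90 candidates had an r above 0.9 with Klrg1 and 150 with Il18rap. These are descriptions of the same 6 libraries, which share their depth and scaling.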

How the data were processed

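The authors deposited FPKM values for 36811 genes in 6 libraries, in a table named for cuffnorm. Per the labels' protocols, SmartSeq2 libraries were sequenced on an Illumina HiSeq system. FastQC, cutadapt and HISAT2 with the builds NCBIM37 and mm9 are named in the submitters' processing notes, and the annotation and strand setting they used were not known here. Symbols for 31840 of the Ensembl identifiers, all 9 members included, came from the reference table. FPKM sums lay between 1502822 and 1940807, of which the 4 highest rows took 32.6% to 47.4%.

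Genes averaging 1 FPKM or more were fitted together with limma 3.58.1 in R 4.3.3 after adding 1 FPKM and taking log2. The fit had a variance trend without a block for replicate number, and Benjamini-Hochberg adjustment ran over all 11979 genes at a threshold of 0.05. Tables and figures used Python 3.11.15 with pandas 2.3.3, numpy 2.4.6, scipy 1.17.1 and matplotlib 3.10.9. Fragments behind a value were estimated from the lowest step of values in genes with a single transcript of at least 2000 bases in GENCODE M21 and from a member's longest transcript, so they are upper limits. Sequences are from RefSeq on GRCm38.p6, which is newer than the build behind the values, and 8 of 9 members had an entry. The procedure was tested on simulated data of 11979 genes for the comparison of cKO with WT, where 200 genes had a known change. It recovered 21.3% of 2-fold and 83.2% of 4-fold changes, with 6.38% and 5.44% of calls false, as means of 5 simulations. The changes were placed only in genes above a level that is higher than the filter. Il1rl1, Il1rap and Areg lay under that level, so the recovery rates do not cover genes as low as these.

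The members and lists were chosen with earlier results of these data known. The named genes are the 9 members, up to 3 genes of each list with the smallest p and its most abundant gene, the 2 genes most like each member above 5 FPKM, and Bach2 and Foxp3, not all of which are printed. Other list genes were named after their values were seen. These are Il33, Il1a, Il1b, Gata3, Batf, Pparg and those listed at 0 or under an unadjusted limma p of 0.05. The same holds for the overlapping Acaa1a and Gm20319, and for the markers. Alternatives were pseudocounts of 0.1 and 5 FPKM, a filter at 5 FPKM or none, 3 scalings (quantile, equal-sum, trimmed-mean), a fit without the trend, one with a robust trend, one with library quality weights, one with a replicate block, and fits leaving out each library in turn.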

Additional observations from a re-analysis of the deposited data

How the results depend on the processing

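No member passed an adjusted p of 0.05 in any of the 17 alternatives, all planned. Klrg1, Il1r2 and Il18r1 kept a positive log2 difference in each of them, and Klrg1 kept an unadjusted limma p under 0.05. The count of 1 member at an unadjusted p under 0.05 became 2 with equal FPKM sums, 2 with library quality weights, and 1 to 2 without 1 library. Il1r2 was the member added each time, in the last case without cKO replicate 2. The count of 3 genes past an adjusted p of 0.05 became 1 when the replicate block was added, and 5 to 15 without 1 library. Libraries of the same number did not deviate together (correlations of -0.06, -0.18 and -0.02), and with the block Klrg1 differed by 0.61 (limma, unadjusted p = 0.0249, adjusted p = 1.0).

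Il1rl1, Il1rap, Il18rap, Areg and Myd88 turned direction in some alternatives without passing, and the cause was not tested. Equal sums, which moved the median of all genes from 0.03 to 0.18, gave 0.099 for Il1rl1 and 0.095 for Myd88. A pseudocount of 5 FPKM gave 0.0010 for Il1rl1, and one of 0.1 FPKM gave -0.0029 for Il1rap. Il1rap was -0.021 after quantile normalization, -0.026 with trimmed-mean scaling and -0.019 with library quality weights, with which Areg was -0.17. Without 1 library the range was -0.30 to 0.17 for Il1rl1, -0.18 to 0.13 for Il1rap, -0.27 to 0.55 for Il18rap, -0.075 to 0.48 for Areg and -0.12 to 0.025 for Myd88. With a minimum of 5 FPKM, Il1rl1, Il1rap and Areg were not tested. Depth limits Il1r1 and Areg most.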
